A study of Drosophila melanogaster with 15 samples.

Results

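The wing imaginal disc was set against the midgut of Drosophila melanogaster larvae at about 18 hours before puparium formation. The 6 arrays of this comparison were chosen by their titles, 3 of wing disc and 3 of midgut, out of 15 arrays that covered 5 dissected tissues. All animals were of the wild-type Canton S strain, with no treatment or mutation in either group, and the 3 samples of a tissue were independent. Each array held amplified RNA of 1 tissue sample, labelled with Cy5, beside whole-animal RNA of that stage, labelled with Cy3, and dyes were never swapped. Values are therefore log2 ratios against the whole animal, centred on the median of each array, and 0 stands for the array median. The comparison was the wing disc mean minus the midgut mean, in which the whole animal and any dye effect common to both tissues cancel. A gene was tested where at least 2 of the 3 arrays of each tissue measured it. That held for 7746 of 9894 named genes, and with unnamed rows 10080 features were tested.

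The wing disc is a sac of undifferentiated epithelium that proliferates through larval life and gives rise to the adult wing and notum. Its cells are patterned by the Hedgehog, Decapentaplegic, Wingless, Notch and EGF receptor pathways, and they grow under the control of the Fat and Hippo pathways. The midgut is a differentiated endodermal tube whose large polyploid enterocytes secrete digestive enzymes, pump acid, take up nutrients and metals and detoxify food. The dissected disc also carries adepithelial myoblasts and tracheal branches, and the dissected midgut carries visceral muscle, endocrine cells and progenitor cells. In such bulk samples a transcript at a lower level may reflect fewer cells of a type or less RNA per cell, and these cannot be told apart.

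Both labels were checked against defining markers. Of 16 midgut markers, trypsin genes and genes of the gut type of septate junction, 14 were tested, and 13 were lower in the wing disc with a median difference of log2 -3.96. Median levels of these markers were -2.56, -2.90 and -3.06 on the wing disc arrays, against 1.18, 1.08 and 0.95 on the midgut arrays. The arrays of the tissues lay far apart for this list. Of 20 wing disc markers, all transcription factor genes of disc patterning, 16 were tested, 7 were higher in the wing disc and 0 lower. Their median levels were 0.61, 0.40 and 0.81 on the wing disc arrays, against -0.11, 0.04 and 0.18 on the midgut arrays, so the disc list separated the tissues by much less than the gut list.

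The wing disc arrays measured 12703, 11570 and 8409 rows, and the midgut arrays 12381, 12912 and 9075 rows. The third array of each tissue measured the fewest rows of its tissue. Over 4540 features measured on all 15 arrays, correlations were 0.835 to 0.924 among wing disc arrays and 0.834 to 0.895 among midgut arrays, against 0.041 to 0.175 between arrays of the 2 tissues. The median SD between replicates was log2 0.275 in the wing disc and 0.273 in the midgut.

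Of the 10080 features tested, 2487 (24.7%) passed the test, a moderated linear model with a Benjamini-Hochberg adjusted p under 0.05. The wing disc was higher for 1216 (12.1%) and lower for 1271 (12.6%). Nearly balanced in number, the calls were unequal in size. At a difference of at least log2 1, which 1879 features (18.6%) reached, 839 were higher and 1040 lower in the wing disc. At log2 2 the counts were 166 higher and 481 lower, at log2 3 they were 27 and 242, and at log2 4 they were 3 and 135. The highest difference was log2 4.89 and the lowest log2 -6.86, while the median over all features was -0.003. The balance of the calls depended on the centring. When arrays were centred on cytosolic ribosomal protein genes (called ribosomal centring from here on), the median difference of all features moved to -0.674 and 374 of 3846 calls were higher. The excess of large differences on the lower side was present under every scaling tried, with 1 to 13 features higher and 111 to 192 lower at log2 4.

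**Figure D1:**
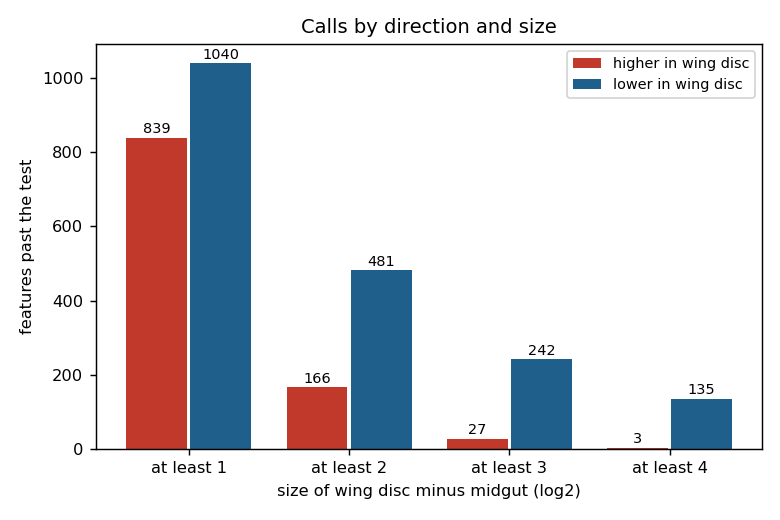
Number of features past the test, by direction (red, higher in wing disc; blue, lower in wing disc), at minimum differences of log2 1, 2, 3 and 4. The bars fall to 3 higher features at log2 4, against 135 lower ones.

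Of 6164 features measured on all 6 arrays, 3005 (48.8%) had wing disc values that did not overlap the midgut values, and 2004 of these 6164 (32.5%) passed the test.

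Most calls were transcripts above the array median in 1 tissue and below it in the other. Among the 1216 features higher in the wing disc, 1035 lay above 0 in the wing disc and below 0 in the midgut, 112 lay above 0 in both and 69 below 0 in both. Their median level was 0.74 in the wing disc and -0.50 in the midgut. Among the 1271 lower features, 1055 lay below 0 in the wing disc and above 0 in the midgut, with medians of -1.16 and 0.57. Features lower in the disc thus stood further below 0 there than features higher in the disc stood below 0 in the midgut.

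Set among all 5 tissues, the midgut was the highest tissue for most lower calls, and the wing disc was the highest for a smaller share of the higher calls. Of 1209 lower features measured in every tissue, the wing disc was the lowest tissue for 48.6% and the midgut the highest for 82.8%. Of 1175 higher features, the wing disc was the highest tissue for 56.6% and the central nervous system for 31.8%, while the midgut was the lowest for 70.6%. Over all 8432 features measured in every tissue, the wing disc was highest for 18.3% and lowest for 21.7%. The midgut was highest for 24.1% and lowest for 26.4% of them, and the central nervous system highest for 19.0%. These places are descriptions and were not tested. On those 8432 features the wing disc and the midgut differed at 2457, second among the 10 tissue pairs after central nervous system and midgut at 2563. Wing disc and central nervous system differed least, at 511. The pairs share arrays, so their counts are not independent.

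**Figure D2:**
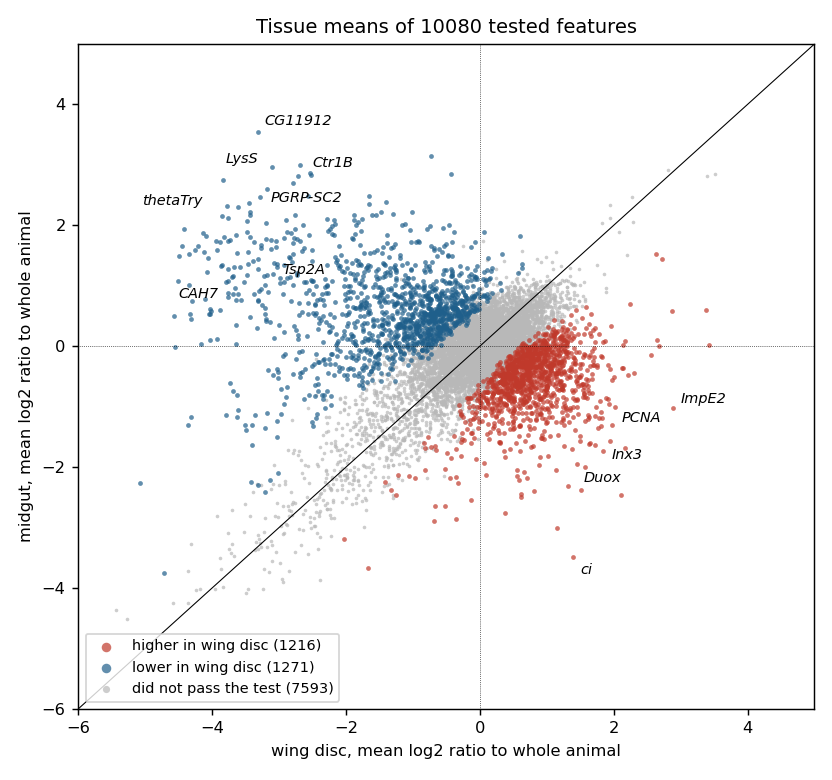
Mean log2 ratio to whole animal in the wing disc (x axis) and in the midgut (y axis) for each tested feature, in red where higher in the wing disc (1216), in blue where lower (1271) and in grey where not past the test. The blue cloud reaches further from the diagonal than the red one, down to CG11912 at -3.32 in the wing disc against 3.54 in the midgut.

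Among patterning transcription factor genes of the disc, a subset stood above the midgut, led by ci and zfh2. Of 61 listed genes 36 were tested, of which 13 were higher, 0 lower and 23 did not pass. The share called higher was 36.1%, beside 12.1% of all features, and the median difference was 0.58, beside -0.003 for all features. With ribosomal centring 5 were higher and 6 lower, and without midgut replicate 2 the count was 8 higher. The gene ci encodes the transcription factor that ends the Hedgehog pathway and is expressed in the anterior compartment of discs. It lay at 1.48, 1.51 and 1.20 in the wing disc, against -3.56, -2.99 and -3.93 in the midgut. All 3 disc arrays stood over 4 log2 units above every midgut array, a difference of log2 4.89 (SE 0.36, adjusted p = 9.26e-08), or 29.7-fold. This was the highest difference of any feature.

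Levels of zfh2, a zinc finger homeobox gene of the proximal wing, were 1.45, 1.54 and 2.16 in the wing disc and -1.28, -1.61 and -2.0 in the midgut. The groups were well apart (log2 3.35, SE 0.30, adjusted p = 8.64e-07). For vg, the selector gene of the wing blade, they were 1.55, 1.87 and 1.69 in the wing disc, against -0.11 and -0.24 on the 2 midgut arrays that measured it. The midgut values of vg lay near the array median and not far below it, so its difference was smaller, log2 1.88 (SE 0.38, adjusted p = 0.0029). The Notch target E(spl)m7-HLH was higher by 1.99 (SE 0.32), and the Iroquois gene ara by 1.69. The T-box gene bi, which responds to Decapentaplegic, was higher by 1.49. Means in the central nervous system were 1.51 for zfh2 and 1.23 for E(spl)m7-HLH, beside 1.715 and 1.48 in the wing disc. For ci the central nervous system mean was -0.32.

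Several compartment and selector genes did not pass. The difference was -0.13 for en and 0.14 for inv, which mark the posterior compartment. It was -0.00 for ap, the dorsal selector, -0.19 for Dll and 0.61 for nub. The gene en lay at -0.21 and -0.01 on 2 wing disc arrays, against -0.07 and 0.11 on 2 midgut arrays, and ap at -0.05, -0.12 and 0.35 in the wing disc, against -0.17 and 0.30 on 2 midgut arrays. Both genes lay near the array median in both tissues, and their values overlapped. Of the 61 listed genes 45 had a value on some array, so 9 were measured on too few arrays for the test.

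Few signalling genes of the disc passed. Of 45 listed ligands and receptors 25 were tested, 6 were higher, 0 lower and 19 did not pass (median 0.52). The called share of 24.0% lay near the 24.7% of all features. With ribosomal centring 3 were higher and 4 lower, and without wing disc replicate 3 the median was 0.19, and 0.20 without midgut replicate 3. Genes of the Hedgehog pathway were among the 6. The co-receptor gene ihog lay at 1.41, 2.04 and 1.85 in the wing disc, against -0.99, -1.62 and -1.46 in the midgut. These values did not overlap (log2 3.12, SE 0.29, adjusted p = 1.39e-06). The signal transducer smo lay at 0.44, 0.90 and 1.24 in the wing disc and at -0.72, -1.11 and -1.58 in the midgut, with all disc arrays above all midgut arrays (log2 2.0, SE 0.34, adjusted p = 0.000341). Other Hedgehog pathway genes of this list did not pass. The co-receptor gene boi, the relative of ihog, differed by -0.23, disp, which releases the ligand, by 0.54 and the ligand gene hh by 0.79. Levels of hh were 1.36 and 0.78 on 2 wing disc arrays, against -0.04 and 0.61 on 2 midgut arrays. The EGF receptor pathway gave kek1, an inhibitor of the receptor, at 2.22 (SE 0.33). It also gave spi, a ligand, at 1.23 (SE 0.29), which did not pass with ribosomal centring (0.54, adjusted p = 0.198). The mean of spi was highest in the central nervous system (1.21, beside 0.45 in the wing disc). For ihog, smo and kek1 the wing disc was the highest of the 5 tissues. Of the remaining higher genes, fng modifies the Notch receptor and Wnt6 is a Wnt ligand, at 1.23 and 1.06. Egfr at 1.21 and tkv, a Decapentaplegic receptor, at 0.52 did not pass.

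Growth and planar polarity genes moved in both directions. Among 20 tested of 29 listed, 4 were higher, 3 lower and 13 did not pass (median 0.25), a called share of 35.0% beside 24.7% of all features. The median was 0.04 without midgut replicate 1 and -0.01 without midgut replicate 2. With ribosomal centring 3 were higher and 5 lower, and without wing disc replicate 2 the higher count was 2. Dlish, an adaptor of the Fat pathway that binds the myosin Dachs, lay at 1.56, 1.47 and 1.69 in the wing disc, against -2.40, -1.41 and -2.17 in the midgut. The disc arrays lay within 0.22 log2 of each other and far above the midgut arrays (log2 3.57, SE 0.32, adjusted p = 1.01e-06). Another Fat pathway gene, lft, was higher by 2.76 (SE 0.27), on 2 wing disc arrays. The planar polarity gene dgo was higher by 2.13 (SE 0.35). On the other side, app, a palmitoyltransferase of the same pathway, was lower in the wing disc (-1.47, SE 0.36) and Wbp2, a partner of the growth regulator Yorkie, was lower as well (-2.61, SE 0.53). The effector yki itself differed by 0.29 and the kinase gene hpo by 0.79, and neither passed.

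Many genes of the cell cycle machinery were higher in the wing disc. Of 50 DNA replication genes 37 were tested, 21 were higher, 0 lower and 16 did not pass, with a median difference of 0.95. The higher share was 56.8%, beside 12.1% of all features. With ribosomal centring the counts were 14 higher and 1 lower. PCNA, the sliding clamp of DNA polymerase, lay at 2.01, 1.77 and 2.15 in the wing disc, against -0.94, -1.27 and -1.72 in the midgut. The groups stood apart by more than 2.5 log2 units at their nearest arrays (log2 3.29, SE 0.31, adjusted p = 9.3e-07), a 9.77-fold difference. The helicase subunit genes Mcm2, Mcm3, Mcm5 and Mcm6 and the initiation factor gene Mcm10 were higher, by 2.25, 2.69, 2.17, 2.28 and 1.81. Of these Mcm3 lay at 2.30, 2.21 and 2.14 in the wing disc, against -0.37, -0.82 and -0.23 in the midgut, again with no overlap (log2 2.69, SE 0.27). RnrL, the large subunit of ribonucleotide reductase, was higher by 2.59, and the clamp loader gene RfC4 by 2.40. The regulators E2f1 at 0.35 and CycE at 0.55 did not pass.

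Of 66 mitosis and cytokinesis genes 36 were tested, with 18 higher, 0 lower and 18 not past the test (median 0.96), and with ribosomal centring 11 higher and 2 lower. The anaphase activator fzy lay at 1.63, 2.03 and 1.77 in the wing disc, against -1.09, -0.81 and -2.04 in the midgut. Its midgut arrays were spread more widely than its disc arrays, but no values overlapped (log2 3.12, SE 0.33, adjusted p = 3.25e-06). The checkpoint gene Bub3 was higher by 2.82 (SE 0.27), and the condensin genes SMC2 and Cap-D2 were higher by 2.81 and 2.54. In contrast fzr, the activator of the same ligase that is used in endocycling cells, was at -0.78 and did not pass.

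Chromatin genes followed. Of 49 listed 32 were tested, 19 were higher, 0 lower and 13 did not pass (median 1.09), and with ribosomal centring 11 were higher and 1 lower. The share called higher was 59.4%, beside 12.1% of all features. Caf1-55, a histone-binding subunit shared by several chromatin complexes, lay at 1.99, 1.68 and 1.69 in the wing disc, against -1.26, -1.11 and -1.18 in the midgut. Replicates of each tissue lay close together and the groups far apart (log2 2.97, SE 0.21, adjusted p = 4.93e-08). The AT-hook protein gene D1 was higher by 2.53, the histone variant gene His2Av by 2.32 on 2 wing disc arrays, and Ssrp, a subunit of the FACT complex, by 2.32. Caf1-55, D1 and His2Av had their highest tissue mean in the central nervous system, and Ssrp in the wing disc. The Polycomb group was uneven, with Psc and esc higher by 1.25 and 1.36 and with Pc at -0.25 and E(z) at 0.48 not past the test.

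Among splicing genes 16 passed and 14 did not. Most ribosomal protein genes did not pass, but a larger share was called higher than among all features. Of 30 tested spliceosome genes (44 listed) 16 were higher, 0 lower and 14 did not pass (median 0.90), and with ribosomal centring 5 were higher and 0 lower. The share called higher was 53.3%, beside 12.1% of all features. Sf3b3 of the U2 particle was the highest at 2.40 (SE 0.27), followed by genes such as SC35, a splicing regulator, at 1.46 (SE 0.26). Cytosolic ribosomal protein genes numbered 35 tested of 92 listed, with 14 higher, 0 lower and 21 not past the test (median 0.63). All 35 had differences above 0, and 40.0% were called higher, beside 12.1% of all features. The higher count was 7 without wing disc replicate 2 or without midgut replicate 3, and 9 without midgut replicate 2. With ribosomal centring, which sets the median of the 28 such genes measured on all 15 arrays to 0 by construction, 1 was higher. The 3 highest were RpL7-like at 1.50, RpL24-like at 1.24 and RpLP0-like at 1.05, which are known as relatives of ribosomal proteins that act in ribosome assembly and are not subunits of the mature ribosome. Mitochondrial ribosomal protein genes gave 17 higher, 1 lower and 40 not past the test among 58 (median 0.50). Differences lay above 0 for 50 of these genes, and 29.3% of the genes were called higher. Their higher count was 10 without wing disc replicate 1 and 11 without wing disc replicate 2, and with ribosomal centring 2 were higher and 6 lower. The highest was mRpL39 at 1.68 (SE 0.32).

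**Figure D3:**
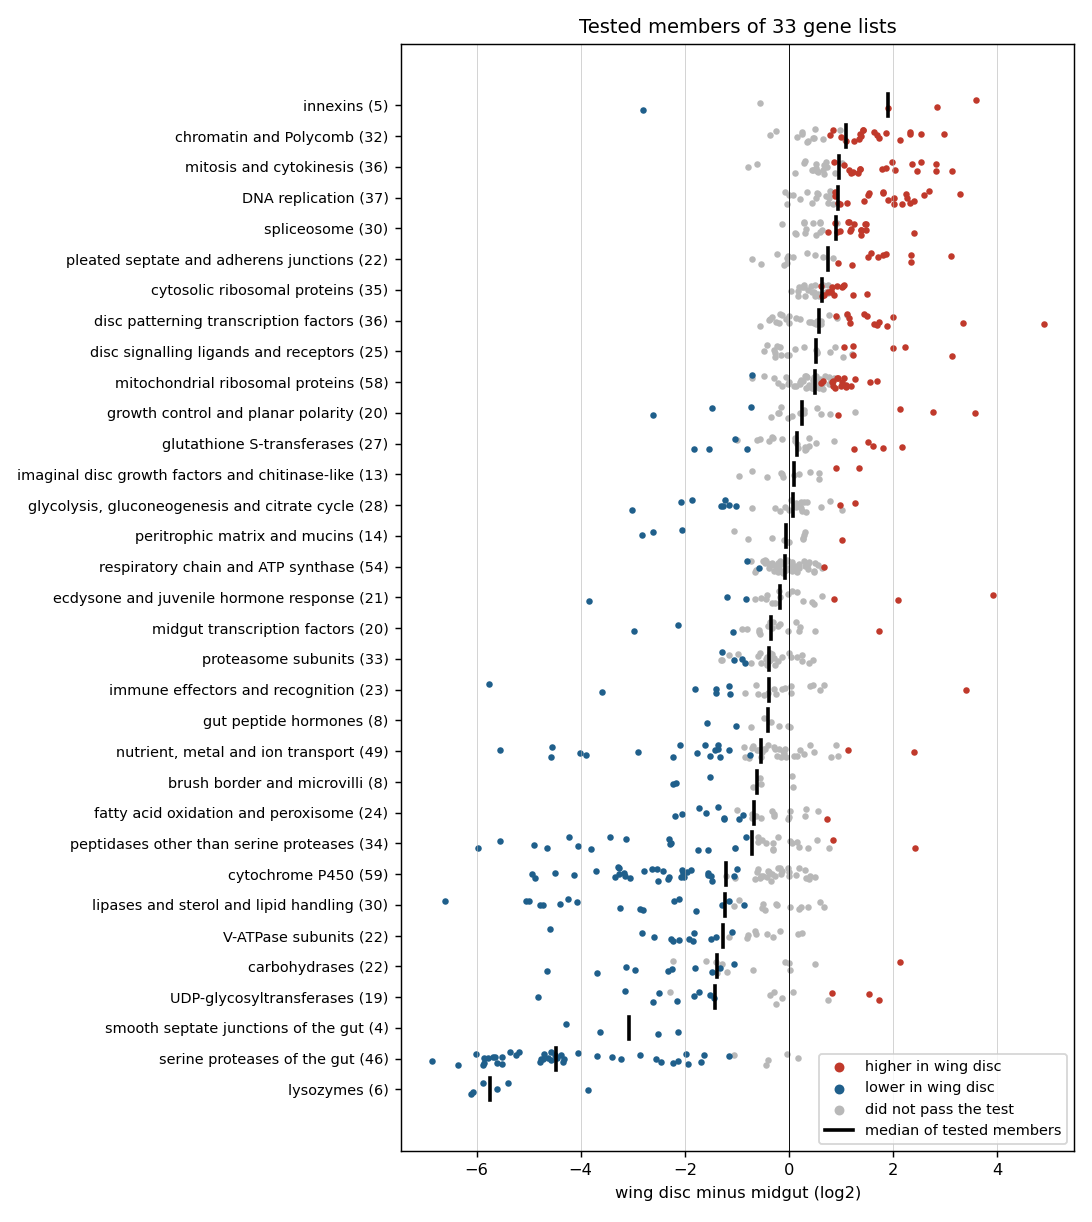
Wing disc minus midgut difference (log2) of each tested member (points) of 33 gene lists, in red where higher in the wing disc, in blue where lower and in grey where not past the test, with the number tested in brackets and a black line at the median. Medians run from -5.74 for lysozymes to 1.90 for innexins.

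Epithelial junctions differed in kind between the tissues. Ectodermal epithelia such as the disc have pleated septate junctions, and the endodermal midgut has smooth septate junctions, built from different proteins. All 4 genes of the smooth type, Tsp2A, hoka, mesh and Ssk, were lower in the wing disc, with a median difference of -3.08. Tsp2A, a tetraspanin, lay at -3.14, -3.32 and -2.81 in the wing disc, against 1.24, 1.32 and 1.04 in the midgut. The groups were over 3.5 log2 units apart at their nearest arrays (log2 -4.29, SE 0.25, adjusted p = 8.47e-09), 19.5-fold lower in the disc. Levels of hoka were -2.35, -2.79 and -1.73 in the wing disc and 1.42, 1.45 and 1.17 in the midgut (log2 -3.64, SE 0.36). Those of mesh were scattered, at -1.79, -2.86 and -3.58 in the wing disc and -0.33, 0.78 and -1.11 in the midgut (log2 -2.52, SE 0.57, adjusted p = 0.0035). Although mesh did not overlap between the tissues, its midgut values lay around the array median, unlike those of its partners. Ssk was at -0.93, -1.47 and -1.08 in the wing disc, against 1.11, 0.96 and 0.86 in the midgut (log2 -2.14, SE 0.23).

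Of 22 tested genes of pleated septate and adherens junctions (30 listed) 10 were higher, 0 lower and 12 did not pass (median 0.74). The share called higher was 45.5%, beside 12.1% of all features. With ribosomal centring 6 were higher and 2 lower. Cont, the cell adhesion protein contactin, lay at 0.28, 0.54 and 1.02 in the wing disc, against -2.74, -2.37 and -2.36 in the midgut, without overlap (log2 3.11, SE 0.49, adjusted p = 0.000178). Its junctional partner Nrx-IV was higher by 1.87 (SE 0.28), on 2 wing disc arrays. The claudin genes sinu and pck were higher by 2.34 and 1.80, the Ly6 protein gene crim by 2.35 and the scaffold gene vari by 1.70. Genes of the septate junction that did not pass included cora at -0.54 and Gli, a protein of tricellular corners, at -0.70. Polarity proteins used in many epithelia did not pass either, with dlg1 at -0.03, l(2)gl at -0.04, baz at -0.02 and aPKC at -0.10.

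Innexins, the subunits of invertebrate gap junctions, also split. Inx3 lay at 1.85, 1.88 and 1.79 in the wing disc, against -1.92, -1.43 and -1.88 in the midgut. Its disc arrays agreed within 0.1 log2 and stood over 3 log2 units above the midgut arrays (log2 3.58, SE 0.29, adjusted p = 1.89e-07). Levels of ogre were 0.80, 0.99 and 1.28 in the wing disc and -1.52, -1.71 and -2.22 in the midgut (log2 2.84, SE 0.30), and those of Inx2 were 0.94, 0.91 and 0.66 in the wing disc and -0.89, -0.72 and -1.58 in the midgut (log2 1.90, SE 0.29). Inx7 went the other way, at -1.45, -1.52 and -1.61 in the wing disc, against 1.18, 1.74 and 0.94 in the midgut (log2 -2.81, SE 0.58, adjusted p = 0.00195). The germline innexin zpg, at 0.51 and 0.14 on 2 wing disc arrays and 0.76, 0.61 and 1.30 in the midgut, did not pass (-0.56, adjusted p = 0.201), although it did with ribosomal centring (-1.30, adjusted p = 0.00851). Of the 8 listed innexins 7 had a value, and 2 of those were measured on too few arrays.

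**Figure D4:**
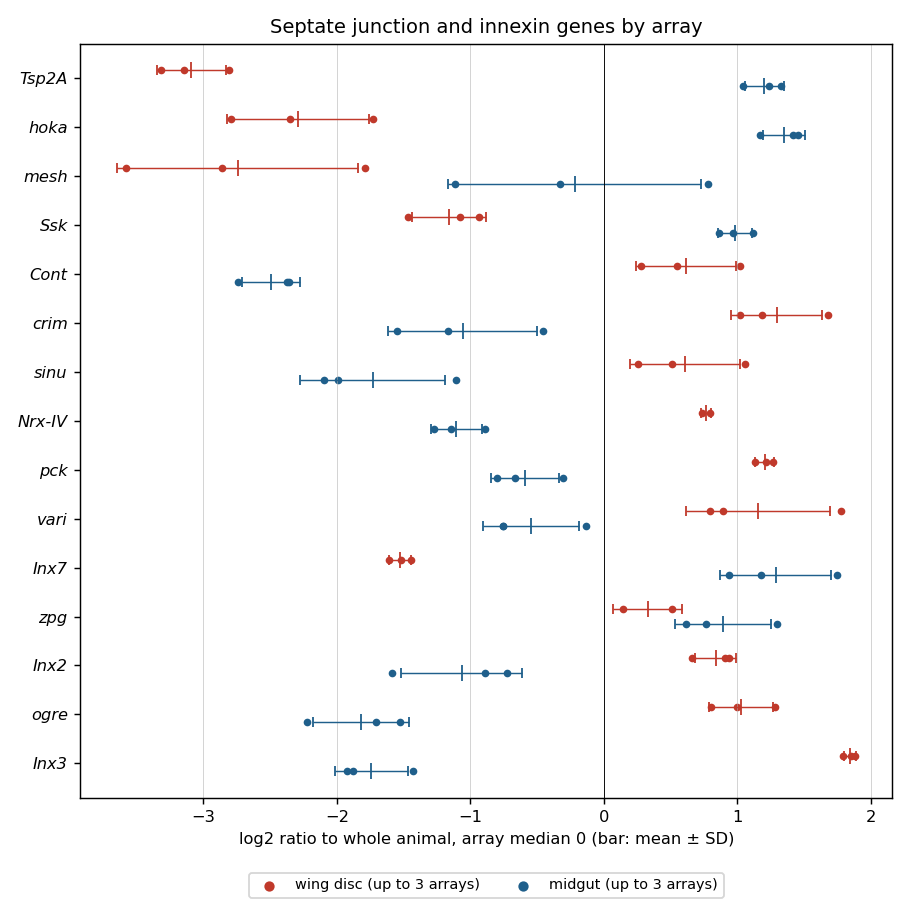
Log2 ratio to whole animal of septate junction and innexin genes on each array, wing disc in red above midgut in blue, with bars at the mean ± SD. Tsp2A, hoka, mesh, Ssk and Inx7 lie lower in the wing disc, and Cont, crim, sinu, Nrx-IV, pck, vari, Inx2, ogre and Inx3 lie higher, while zpg did not pass the test.

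Digestive enzymes were among the largest differences. Of the 135 features lower by at least log2 4, 123 were named genes. Of these, 48 were in the lists of serine proteases, other peptidases, lysozymes, carbohydrases, and lipases with lipid-handling genes. Those lists held 46, 34, 6, 22 and 30 tested genes, out of 7746 named genes tested. Of 46 tested serine protease genes (59 listed) 41 were lower in the wing disc, 0 higher and 5 did not pass, with a median difference of -4.47. The share called lower was 89.1%, beside 12.6% of all features. Median levels of the list were -2.78, -3.29 and -3.06 on the wing disc arrays, against 1.46, 1.31 and 1.17 on the midgut arrays. CG11912, a member of the list, lay at -3.24, -3.64 and -3.08 in the wing disc, against 3.50, 3.72 and 3.40 in the midgut. This was the lowest difference of any feature, log2 -6.86 (SE 0.28, adjusted p = 3.87e-10), or 116-fold lower in the disc. Means of CG11912 were similarly low in epidermis with muscle (-2.94), salivary gland (-3.73) and central nervous system (-3.82). Whether such low values reflect transcript or array background was not tested, so large folds of this kind are uncertain in size. The trypsin gene thetaTry lay at -3.85, -3.86 and -3.86 in the wing disc, against 2.56, 1.71 and 2.20 in the midgut, again with a wide gap (log2 -6.01, SE 0.44). The chymotrypsin-like Jonah genes Jon99Cii, Jon99Fii, Jon99Ciii and Jon25Biii were lower with differences of -6.35, -5.88, -5.86 and -5.85. Jon99Cii and Jon99Ciii are near-identical copies, as are some trypsin genes, so the split of signal between such copies is uncertain. The 5 that did not pass were Try29F at -1.06, Jon66Ci at -0.45, CG8329 at -0.39, CG6592 at -0.05 and CG9897 at 0.16.

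Lysozymes, which digest bacterial walls in the gut lumen, were lower without exception among the 6 tested of 7 listed, with a median of -5.74. LysS lay at -3.29, -2.55 and -3.45 in the wing disc, against 3.15, 2.22 and 3.53 in the midgut, with no overlap (log2 -6.07, SE 0.37, adjusted p = 1.12e-08). LysB, LysD and LysE, near-identical copies, had differences of -5.60, -5.88 and -6.11, and all 3 were lowest on midgut replicate 2 among the midgut arrays. LysP was at -5.40 and LysX at -3.86.

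Sugar-digesting enzymes were less uniform. Of 22 tested carbohydrase genes 10 were lower, 1 higher and 11 did not pass (median -1.39), and with ribosomal centring 16 were lower. The amylase gene Amy-d lay at -4.38, -3.60 and -3.31 in the wing disc, against 0.48, 1.21 and 0.96 in the midgut (log2 -4.65, SE 0.38), and its close copy Amy-p differed by -1.32. Signal may be shared between these copies. The maltase genes Mal-A1 and Mal-A5 had differences of -3.69 (SE 0.63) and -3.13 (SE 0.45). Midgut levels of Mal-A1 were -0.04, 0.76 and -0.59, around the array median, against -3.59, -3.21 and -4.15 in the wing disc. Mean levels of Mal-A1 elsewhere were -2.29 (salivary gland), -2.45 (central nervous system) and -3.52 (epidermis with muscle). The midgut was thus the highest of the 5 tissues for this gene, although its values lay near 0. The exception was Ect3, a beta-galactosidase gene named for the ectoderm, at -0.45, -0.73 and -0.40 in the wing disc, against -2.21, -3.42 and -2.31 in the midgut (log2 2.12, SE 0.30). Its close relative Gal differed by 0.50 and did not pass.

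Of 34 tested peptidase genes outside the serine proteases (55 listed) 16 were lower, 2 higher and 16 did not pass (median -0.71). The called share was 52.9%, beside 24.7% of all features. The higher count was 1 in each fit that left out 1 array, other than wing disc replicate 1. CG17633, annotated as a metallocarboxypeptidase, lay at -4.55, -3.64 and -5.29 in the wing disc, against 1.41, 1.69 and 1.36 in the midgut (log2 -5.98, SE 0.35). Lipid-digesting and lipid-handling genes gave 17 lower, 0 higher and 13 not past the test among 30 tested (median -1.22). Their called share was 56.7%, beside 24.7% of all features. The lipase gene CG6271 lay at -3.70, -4.30 and -3.53 in the wing disc, against 2.78, 3.44 and 2.06 in the midgut, 97.1-fold lower in the disc (log2 -6.60, SE 0.37, adjusted p = 7.76e-09). Npc2d, of a family of sterol carrier proteins, differed by -4.78 (SE 0.49). Genes of the peritrophic matrix, the chitinous sheath that lines the gut lumen, were mostly not past the test, with 3 lower and 1 higher among 14 (median -0.06). Their called share of 28.6% lay near the 24.7% of all features. With ribosomal centring 6 were lower and 0 higher, and with quantile normalization the median was 0.12. The lower ones included the mucin gene Muc55B at -2.83 and Peritrophin-15a at -2.61.

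Acid pumping and transport separated the tissues gene by gene. The V-ATPase is a proton pump that acidifies organelles in every cell and the lumen in parts of the gut. Of 22 tested subunit genes 12 were lower, 0 higher and 10 did not pass (median -1.27). The share called lower was 54.5%, beside 12.6% of all features. The a-subunit gene Vha100-5 lay at -3.35, -4.09 and -3.86 in the wing disc, against 0.74, 0.96 and 0.74 in the midgut, 23.9-fold lower (log2 -4.58, SE 0.32, adjusted p = 3.97e-08). Among the other a-subunit genes Vha100-4 was lower at -2.12, while Vha100-1 at -0.63 and Vha100-2 at -0.31 did not pass. Genes of other subunits were lower by intermediate amounts, Vha55 at -2.82, Vha36-1 at -2.26, Vha16-1 at -1.83 and Vha44 at -1.10. The accessory subunit gene VhaAC45 was at -2.58.

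Of 49 tested genes for transport of nutrients, metals and ions (66 listed) 17 were lower, 2 higher and 30 did not pass (median -0.53). The called share was 38.8%, beside 24.7% of all features, and with ribosomal centring 30 were lower and 1 higher. The copper importer gene Ctr1B lay at -2.21, -2.84 and -3.10 in the wing disc, against 3.44, 2.98 and 2.05 in the midgut, which was 46.6-fold lower (log2 -5.54, SE 0.43, adjusted p = 1.34e-07). Iron genes split. The ferritin light chain gene Fer2LCH, for iron storage and export, was at -2.62, -3.15 and -2.86 in the wing disc, against 0.99, 1.32 and 1.09 in the midgut (log2 -4.01, SE 0.25). The transferrin family gene Tsf2, which is known to act in septate junction assembly, was at 1.18, 0.80 and 0.82 in the wing disc, against -1.60, -1.39 and -1.44 in the midgut (log2 2.41, SE 0.27). The carbonic anhydrase gene CAH7 and the organic anion transporter gene Oatp33Ea differed by -4.55 and -4.57. With ribosomal centring 5 of 8 tested brush border genes were lower. With centring on the array median 3 were lower (37.5%, beside 12.6% of all features) and 5 did not pass (median -0.62). These were the myosin gene Myo28B1 at -2.22, the actin-bundling fimbrin gene Fim at -2.18 and the spectrin gene kst at -1.52, which did not pass without wing disc replicate 2 (-1.32, adjusted p = 0.0574) or without midgut replicate 2 (-1.20, adjusted p = 0.0637).

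Detoxification families differed in their balance. Of 59 tested cytochrome P450 genes 31 were lower, 0 higher and 28 did not pass (median -1.21). The share called lower was 52.5%, beside 12.6% of all features. Cyp12a4 lay at -3.19, -3.30 and -1.82 in the wing disc, against 2.25, 2.38 and 1.86 in the midgut (log2 -4.93, SE 0.40), and Cyp304a1 and Cyp6a14 had differences of -4.88 and -4.14. Cyp9f2 had rows that differed in size, at -6.30 and -2.69. UDP-glycosyltransferase genes, which conjugate sugars to small molecules, gave 9 lower, 3 higher and 7 not past the test among 19. That was a called share of 63.2%, beside 24.7% of all features, with 1 higher without midgut replicate 1. Ugt37A3 was at -4.82 (SE 0.37) and Ugt317A1 at 1.72 (SE 0.25). Glutathione S-transferases were split, with 5 higher, 4 lower and 18 not past the test among 27 (median 0.16), and with ribosomal centring 4 higher and 10 lower. Their called share was 33.3%, beside 24.7% of all features. The lower count was 2 without wing disc replicate 3, without midgut replicate 1 or without midgut replicate 2. GstD3 lay at 1.37, 1.16 and 1.35 in the wing disc, against -0.92, -0.83 and -0.90 in the midgut, with tight replicates on both sides (log2 2.17, SE 0.36). GstT4 was lower, at -1.22, -1.29 and -1.43 in the wing disc, against 0.34, 0.76 and 0.43 in the midgut (log2 -1.82, SE 0.33).

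Energy metabolism showed few calls for respiration and more for other routes. Respiratory chain and ATP synthase genes numbered 54 tested, with 2 lower, 1 higher and 51 not past the test (median -0.07). Their called share was 5.56%, beside 24.7% of all features, although with ribosomal centring 23 were lower and 0 higher. The lower count was 0 without wing disc replicate 1 or midgut replicate 1, 1 without wing disc replicate 3 or midgut replicate 2, and 3 without midgut replicate 3. Among 24 tested genes of fatty acid oxidation and peroxisomes, 9 were lower, 1 higher and 14 not past the test (median -0.67). The called share was 41.7%, beside 24.7% of all features, and with ribosomal centring 16 were lower and 0 higher. The lower ones included whd, the carnitine palmitoyltransferase of mitochondrial import, at -1.72, and the peroxisomal gene Mfe2 at -1.60. Glycolysis, gluconeogenesis and citrate cycle genes gave 8 lower, 2 higher and 18 not past the test among 28 (median 0.08). Their called share was 35.7%, beside 24.7% of all features. With ribosomal centring they gave 10 lower and 0 higher, with quantile normalization 5 lower and 6 higher (median 0.39), and with only the 6 arrays fitted 9 lower and 5 higher. The gluconeogenic gene Pepck1 lay at -2.05, -2.34 and -2.62 in the wing disc, against 0.69, 0.89 and 0.45 in the midgut (log2 -3.01, SE 0.27, adjusted p = 4.84e-07), whereas Pfk, the committed enzyme of glycolysis, lay at -0.43, -0.59 and -0.44 in the wing disc, against -1.83, -1.44 and -2.03 in the midgut (log2 1.28, SE 0.30). Both tissues were below the array median for Pfk, and it did not pass with ribosomal centring (0.59, adjusted p = 0.224). The higher count of this list was 1 without wing disc replicate 3. Of 33 proteasome genes 4 were lower, 0 higher and 29 did not pass (median -0.39), a called share of 12.1% beside 24.7% of all features. The lower count was 2 without wing disc replicate 3, 1 without midgut replicate 2 and 25 with ribosomal centring. The lid protease gene Rpn11 was at -1.29 (SE 0.29).

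Of 20 tested midgut transcription factor genes (27 listed) 3 were lower, 1 higher and 16 did not pass (median -0.35). The called share, 4 of 20, lay near the 24.7% of all features, and with ribosomal centring 12 were lower and 0 higher. GATAe, the GATA factor of endoderm, lay at -0.80 and -1.39 on 2 wing disc arrays, against 1.01, 1.02 and 1.10 in the midgut (log2 -2.14, SE 0.34, adjusted p = 0.000243). The sugar-responsive zinc finger gene sug was at -1.73, -1.60 and -1.77 in the wing disc and 1.59, 0.40 and 1.87 in the midgut, well apart (log2 -2.99, SE 0.52). Hnf4, a nuclear receptor of lipid and sugar metabolism, differed by -1.07 (SE 0.28). The higher gene was bowl, a zinc finger gene that the disc patterning list also held, at 1.73, which did not pass with ribosomal centring (1.05, adjusted p = 0.0609). The progenitor gene esg at -0.17 and the endocrine cell gene pros at 0.14 did not pass. Of 8 tested gut peptide hormone genes CCHa2 at -1.58 (SE 0.30) and CCHa1 at -1.02 (SE 0.25) were lower, and 6 did not pass. The called share of 25.0% lay near the 24.7% of all features. With ribosomal centring 4 were lower.

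Genes of the ecdysone and juvenile hormone responses were called in both directions. Ecdysone is the steroid that drives puparium formation, and its pulses begin at about this stage. Of 21 tested genes 3 were higher, 3 lower and 15 did not pass (median -0.17), a called share of 28.6% near the 24.7% of all features. With ribosomal centring 2 were higher and 8 lower, and with quantile normalization 4 were higher and 3 lower (median 0.04). ImpE2, an ecdysone-inducible gene first isolated from discs, lay at 2.90, 3.32 and 2.46 in the wing disc, against -0.88, -1.17 and -1.04 in the midgut. The disc arrays stood more than 3 log2 units above the midgut arrays (log2 3.92, SE 0.41, adjusted p = 3.06e-06), a 15.1-fold difference. ImpE3, another gene of that screen, lay at 1.73, 1.74 and 1.77 in the wing disc, against -0.37 and -0.34 on 2 midgut arrays (log2 2.10, SE 0.30). ImpE1, named with them, differed by 0.49 and did not pass. The gene shd encodes the enzyme that converts ecdysone to its active form in peripheral tissues. It lay at -3.40, -2.94 and -3.31 in the wing disc, against 0.31, 1.57 and 0.00 in the midgut, with no overlap (log2 -3.84, SE 0.67, adjusted p = 0.000391). The receptor genes EcR at -0.65 and usp at -0.54 and the early gene br at 0.15 did not pass.

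Immune genes were lower where they passed, with 1 exception. Of 23 tested (39 listed) 7 were lower, 1 higher and 15 did not pass (median -0.39). The called share was 34.8%, beside 24.7% of all features. The higher count was 0 without midgut replicate 1 and 2 without midgut replicate 3. With ribosomal centring 11 were lower and 1 higher, and with quantile normalization 8 were lower and 3 higher. PGRP-SC2, an amidase that degrades bacterial peptidoglycan in the gut, lay at -3.26, -3.45 and -3.17 in the wing disc, against 2.48, 2.45 and 2.48 in the midgut, 54.3-fold lower (log2 -5.76, SE 0.51, adjusted p = 4.56e-07). Replicates of both tissues were tight. The gene pirk, an inhibitor of the Imd pathway, was at -3.55, -2.75 and -1.23 in the wing disc, against 0.85, 1.51 and 0.89 in the midgut, with wide scatter among disc arrays (log2 -3.59, SE 0.43). The Imd pathway factor Rel differed by -1.40 (SE 0.26) and the peptidoglycan recognition protein genes PGRP-LB and PGRP-LA by -1.40 and -1.15. The exception was Duox, an oxidase that makes hydrogen peroxide and is known both from gut immunity and from cross-linking of the cuticle. It lay at 1.23, 1.28 and 1.83 in the wing disc, against -1.57 and -2.32 on the 2 midgut arrays that measured it. The wing disc was thus 10.5-fold higher (log2 3.39, SE 0.39, adjusted p = 1.07e-05). Imaginal disc growth factor and chitinase genes gave 2 higher and 0 lower among 13, a called share of 15.4%, below that of all features. The higher count was 1 without wing disc replicate 1 or 3 and 0 without midgut replicate 1. With ribosomal centring 6 were lower and 0 higher, and with quantile normalization 4 were higher and 0 lower.

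**Figure D5:**
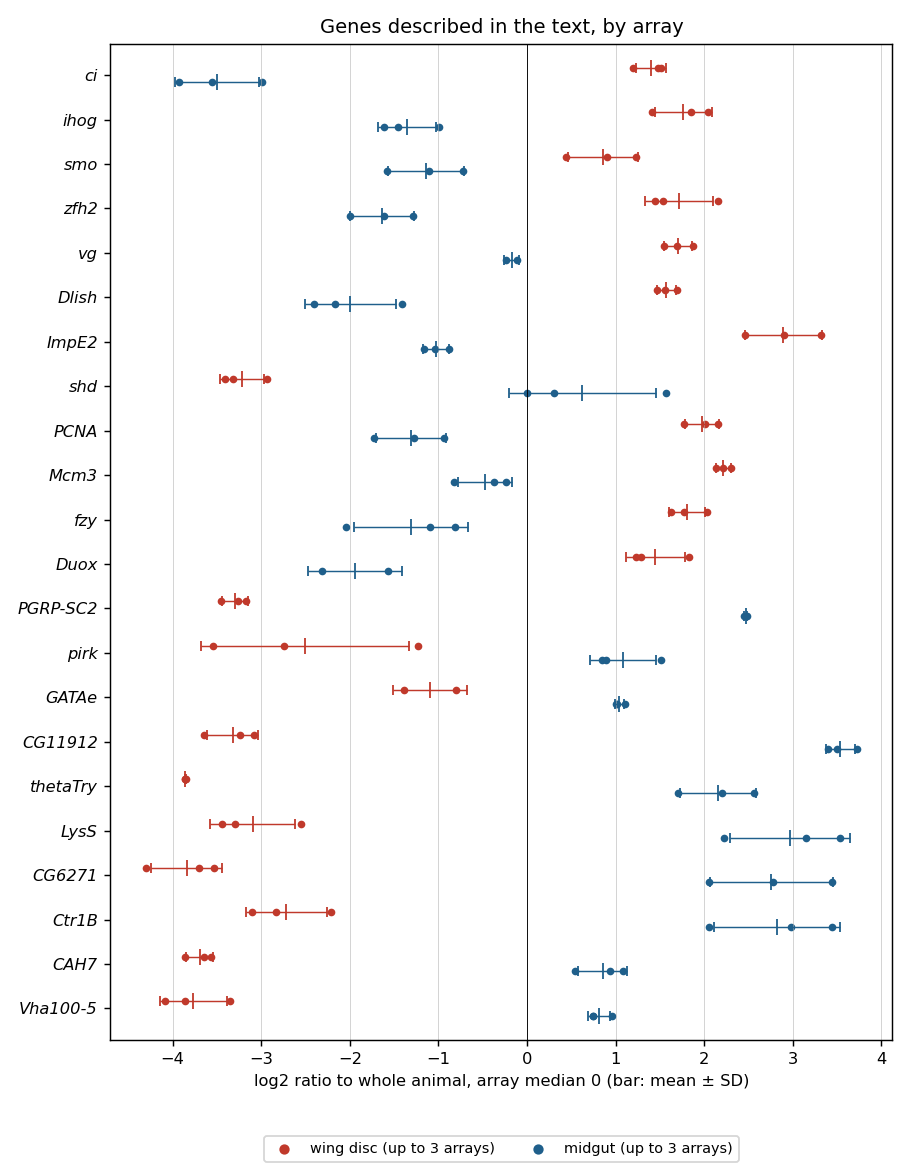
Log2 ratio to whole animal of 22 genes described in the text on each array, wing disc in red above midgut in blue, with bars at the mean ± SD. From ci at 1.40 in the wing disc against -3.50 in the midgut to CG11912 at -3.32 against 3.54, no gene shown had overlapping values in the 2 tissues. The genes were picked from calls, in part by a rule that required this. Of all features measured on all 6 arrays, 48.8% did not overlap.

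Markers of other cell types that dissection could carry along were compared in the same way. Muscle markers, 13 tested, had medians of -2.30, -2.54 and -2.31 on the wing disc arrays and -2.15, -1.50 and -2.53 on the midgut arrays. Only TpnC73F among them passed, at -1.25, and with quantile normalization it did not (-0.58, adjusted p = 0.246). Fat body markers, 7 tested, had medians of -2.95, -2.84 and -3.26 on the wing disc arrays and -2.85, -3.07 and -2.97 on the midgut arrays. Desat1 alone passed there, at -1.41, on 2 wing disc arrays. Both lists lay far below the array median in both tissues. Salivary gland markers (8 tested) had medians of -2.86 to -1.89 in the wing disc and -2.26 to -1.72 in the midgut, and those of neurons and glia (9 tested) -0.26 to 0.07 and -0.19 to 0.17. No member of either passed. Hemocyte markers, 16 tested, ran from -1.16 to -0.97 in the wing disc and from -1.18 to -0.97 in the midgut, with SPARC higher at 1.15 and crq lower at -0.87. SPARC did not pass without wing disc replicate 1 (0.93, adjusted p = 0.0566) or without midgut replicate 2 (0.98, adjusted p = 0.0538).

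Of 5 tested tracheal markers 3 were higher and 2, with differences below 0, did not pass, with list medians of -0.67 to -0.01 in the wing disc and -1.94 to -1.45 in the midgut. They were uif, a tracheal membrane protein gene, at 2.24, and the chitin deacetylase genes verm at 1.93 and serp at 1.21. Rows of verm ran from -0.15 to 3.30. Without wing disc replicate 1 serp was at 0.94 (adjusted p = 0.0646), without wing disc replicate 2 at 1.07 and without midgut replicate 1 at 1.04 (adjusted p = 0.054 in both). With ribosomal centring uif was at 1.55 (adjusted p = 0.0669). Of 6 tested markers of adepithelial myoblasts 5 did not pass, and 3 of the 6 had differences above 0 (median -0.04). The 1 that was higher was blow, a gene of myoblast fusion. It lay at 1.61, 1.25 and 1.51 in the wing disc, against -0.96, -0.67 and -1.04 in the midgut (log2 2.35, SE 0.21). Medians of that list were -0.03 to 0.48 in the wing disc and -0.53 to 0.30 in the midgut. Of 6 tested Malpighian tubule markers bwa at -2.22 and ClC-a at -1.20 were lower, while 3 had differences above 0 and did not pass. Medians of that list were -1.22 to -0.52 in the wing disc and -0.85 to -0.48 in the midgut. Cuticle genes of the epidermis gave 4 lower and 1 higher among 61, and germline markers 1 higher among 5. The count for Malpighian tubule was 1 without wing disc replicate 1 or 2. The lower count of cuticle genes was 1 without wing disc replicate 2, and 2 without wing disc replicate 3 or midgut replicate 3. The germline count was 0 in some fits that left out 1 array. The part of these cells in the differences above was not tested.

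Genes lower in the disc often sat beside one another in the genome. Each named gene was followed along the chromosome to the next tested gene. Among the 882 genes called lower by at least log2 1, 21.7% were followed by another such gene, beside 11.4% of all genes being of that kind. For the 666 genes called higher by that amount the values were 13.8% and 8.61%. These shares were not tested. Runs of 4 or more consecutive genes numbered 14 on the lower side and 0 on the higher side. The longest held 8 trypsin genes from lambdaTry to betaTry, with a median difference of -4.41. A run of 7 held the Jonah genes Jon65Ai to Jon65Aiv with yip7, CG6462 and CG10477 (median -5.24). Runs of 6 held lipase genes from CG6296 to CG6271 (median -4.69) and the lysozyme genes LysB, LysD, LysE, LysP and LysS with CG9119 (median -5.74). Members of such clusters are similar in sequence, so their values are not independent of each other.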

How the data were processed

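Per the labels, 5 tissues and whole animals were compared on 2-colour arrays after RNA amplification by in vitro transcription, with 3 independent samples per tissue. The deposited values were log2 ratios of tissue over whole animal, 1 column per array. The log base was read from the values and the direction from the dyes in the titles. Scanner, background correction, normalization and genome build, and why cells are empty, are not stated in any label or header used here. Of 20000 rows 14051 held a value, 10817 of them with 1 gene in the array's annotation, and 10813 matched a current RefSeq gene record. Rows of 1 gene were averaged, and 130 of 767 tested genes with several rows had rows over log2 1 apart. Each array was centred on its median. Limma 3.58.1 in R 4.3.3 fitted 1 mean per tissue over all 15 arrays, with empirical Bayes variances (prior degrees of freedom 5.965, prior SD 0.338), and the contrast was wing disc minus midgut. P-values were adjusted by the Benjamini-Hochberg method over all features tested, with a threshold of 0.05. The script was tested on simulated data. The number of arrays limits the precision, and depth has no meaning here.

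The comparison, the 43 gene lists and their members were chosen with earlier results of these data known. Lists were described by counts and medians, with no set test. Of 1651 list entries 19 matched no gene record and 1212 were on the array. The entries bcn92 (peptidases), krz (chitinases) and Dh44-R2 (midgut transcription factors) did not belong to their lists by function, and none passed. Named genes were the 15 highest and 15 lowest calls measured on all 6 arrays without overlap, up to 4 members per list and direction, and every member of lists of 8 or fewer. Other members were chosen after their values were seen. Figures were drawn with python 3.11.15, pandas 2.3.3, numpy 2.4.6 and matplotlib 3.10.9.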

Additional observations from a re-analysis of the deposited data

How the results depend on the processing

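Centring decided the balance of directions. The share of calls higher in the wing disc, 48.9%, was 50.4% with no centring, 52.1% when centred on features measured on all 15 arrays, 50.2% with all arrays scaled to 1 spread and 54.9% with quantile normalization. With centring on ribosomal protein genes it was 9.72%, with 3846 calls (374 higher, 3472 lower) and 3074 at log2 1, and ATPsynC turned to -0.02 (adjusted p = 0.956). A test against a minimum of log2 1 left 584 features (177 higher, 407 lower). Leaving out 1 array at a time gave 1809 to 2227 calls, 46.1% to 49.2% higher, and 1528 to 1840 at log2 1, with fewer features tested. Deviations from the tissue mean of same-numbered wing disc and midgut arrays correlated at 0.175, -0.013 and -0.053. Those of differently numbered arrays correlated at -0.238 to 0.232. Deviations from a mean of 3 arrays are tied to each other, so these values cannot show whether replicate numbers pair the arrays. With the replicate number as a block 2527 features passed, 1254 of them higher. Of 179 named genes 178 passed. At most 13 of these lost the call under each setting other than ribosomal centring, where 26 did, ATPsynC among them. The planned count of promoter motifs was not run, since no promoter sequences were used here. Values rest on 2 or 3 arrays per tissue.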

Other observations

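Some gene families outside the lists were taken by symbol after their values were seen, so their counts are descriptions. All 8 tested subunit genes of the CCT chaperonin, which folds actin and tubulin, were higher in the wing disc, and 6 were with ribosomal centring. Their differences ran from 1.45 for CCT3 to 1.99 for CCT8. CCT8 lay at 1.71, 1.60 and 1.49 in the wing disc, against -0.17, -0.42 and -0.60 in the midgut. All 7 tested alpha and beta tubulin genes were higher as well, from 1.12 for alphaTub67C to 2.18 for betaTub56D, and 4 were with ribosomal centring. Tubulin genes are similar in sequence, and alphaTub67C and betaTub85D are known as germline genes, so signal shared between copies cannot be told apart here. Of 17 genes with nucleoporin symbols 10 were higher and 0 lower (5 and 0 with ribosomal centring), led by Nup93-1 at 1.64, 1.57 and 1.70 in the wing disc, against -1.06, -1.06 and -1.39 in the midgut (log2 2.81).

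On the other side 5 of 11 tested alkaline phosphatase genes were lower and 0 higher, with Alp6 at -5.61 and Alp5 at -4.88. Alp6 lay at -3.83, -2.97 and -4.86 in the wing disc, against 1.87, 1.90 and 1.40 in the midgut. Tetraspanins, membrane proteins with 1 member in smooth septate junctions, divided. Of 25 tested 8 were lower, 2 higher and 15 did not pass (0 higher and 15 lower with ribosomal centring). Besides Tsp2A, Tsp29Fa and Tsp29Fb were lower with differences of -5.01 and -4.98, and Tsp42Ee was higher at 1.31. Leaving out 1 array at a time gave 0 to 2 higher tetraspanins. Of features measured on all 3 arrays of 1 tissue and on none of the other, 12 were of wing disc and 45 of midgut, and these have no difference.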
